A study of Mus musculus with 12 samples.

Results

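The genes described here are the developmental transcription factor families Hox, Pax, Sox, Tbx, Lhx, Dlx, Nkx and sine oculis (Six2 to Six6) together with the Wnt ligands. They were chosen by symbol alone, with no filter on signal: every probe of the array whose gene symbol began with Hoxa, Hoxb, Hoxc or Hoxd and a number, with Pax, Sox, Tbx, Lhx, Dlx, Wnt or the sine oculis stem and a digit, or with Nkx. The choice gave 233 probes for 132 genes, of 45281 probes and 19057 named genes in all. RNA was measured on 12 Illumina bead arrays of dendritic cells grown from the bone marrow of C57/B6 mice, and the 4 groups hold 3 arrays each. Ezh2 KO mature cells came from Ezh2f/f; Mx-cre marrow and were treated with LPS, Ezh2 KO immature cells came from the same genotype without LPS, WT mature cells came from Ezh2f/f marrow with LPS, and WT immature cells came from Ezh2f/f marrow without it. All 4 groups thus carry the floxed Ezh2 allele, and Mx-cre places the recombinase under an interferon-inducible promoter that is not specific to dendritic cells. Per the labels, cultures began with 20 ng/ml GM-CSF and 10 ng/ml IL-4, were changed on day 2 to 10 ng/ml GM-CSF alone, and lasted 6 or 7 days. LPS was given at 100 ng/ml overnight, and in some experiments, not named, mature cells were also kept 6 h without serum. The age of the mice and the origin of the replicates are not stated, so the p-values reflect only how far these samples vary, which may be technical.

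Ezh2 carries the enzyme activity of Polycomb repressive complex 2 and methylates lysine 27 of histone H3. The Hox clusters and the genes of many other developmental regulators and Wnt ligands are classic Polycomb targets, held silent in cell types that do not use them and reactivated in several tissues when the complex is lost. Most of these families act in patterning and organ formation, while a few members, such as several Hoxa and Hoxb genes, Sox4, Pax5 and Tbx21, have known functions in blood progenitors or lymphocytes. The question was whether these genes become expressed in Ezh2-deficient dendritic cells, and LPS treatment gives a second comparison in each genotype.

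Levels below are log2 values after background correction and quantile normalization, and a probe is called detected where its deposited detection p-value is under 0.05. Ezh2 itself had 3 probes. ILMN_2988572 was at 6.10 and 6.61 on Ezh2 KO mature arrays 1 and 2, against 6.90 and 7.03 on WT mature arrays, and at 4.96 and 5.06 on Ezh2 KO immature arrays, against 6.58 and 6.03 on WT immature arrays. ILMN_1234171 was detected on all 12 arrays without separating the genotypes, and ILMN_2606429 was detected on none. ILMN_2988572 was not called over both stages (limma adjusted p = 0.273), and its Ezh2 KO mature arrays overlapped the WT immature ones. The positions of all 3 probes relative to the deleted exons are not known here, so none of them checks the deletion by itself. Cdkn2a, a cell cycle inhibitor and well known Polycomb target, was at 7.28 to 7.84 (ILMN_1226950) on the 4 Ezh2 KO arrays of replicates 1 and 2 and at 4.55 to 5.04 on the 4 WT arrays.

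The 4 arrays of replicate 3 went against their labels. There the Cdkn2a level was 4.57 and 4.70 for the pair labelled Ezh2 KO, against 7.63 and 8.08 for the pair labelled WT. Il6, a cytokine made after LPS, was at 12.08 on the array labelled Ezh2 KO mature 3 and 5.90 on that labelled Ezh2 KO immature 3, but at 4.93 on the array labelled WT mature 3 and 11.99 on that labelled WT immature 3. The tests below therefore use replicates 1 and 2 (8 arrays), and replicate 3 is given apart, as labelled. The dendritic cell markers Itgax, Cd74 and Ccr7 were detected on all 12 arrays, while Flt3 was detected in no group. Dendritic cell cultures are mixed, and in such bulk RNA fewer cells of a type and less RNA per cell cannot be told apart.

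Few of the family probes gave a signal, and their number was similar in Ezh2 KO and WT cells. On single arrays 19 and 20 of the 233 probes were detected in Ezh2 KO mature cells, against 19 and 21 in WT mature cells, and 21 and 20 in Ezh2 KO immature cells, against 17 and 24 in WT immature cells. The genotypes overlapped at both stages. Because a detection p under 0.05 is reached by 5% of negative controls, about 11.65 probes would pass on each array with no transcript present. The arrays labelled replicate 3 had 17 in Ezh2 KO mature, 23 in WT mature, 32 in Ezh2 KO immature and 24 in WT immature. As a share, 7.30% to 13.7% of the family probes were detected on an array, against 39.5% to 43.3% of all probes. Counting only probes detected on both arrays of a group, there were 13 in Ezh2 KO mature cells and 15 in WT mature cells (5.58% and 6.44%), and 13 in Ezh2 KO immature cells and 11 in WT immature cells (5.58% and 4.72%). Of all probes, 36.4% and 36.7% passed on both arrays in Ezh2 KO and WT mature cells, and 39.0% and 38.4% in immature cells. The 5% of negative controls holds for a single array, not for both together.

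**Figure D1:**
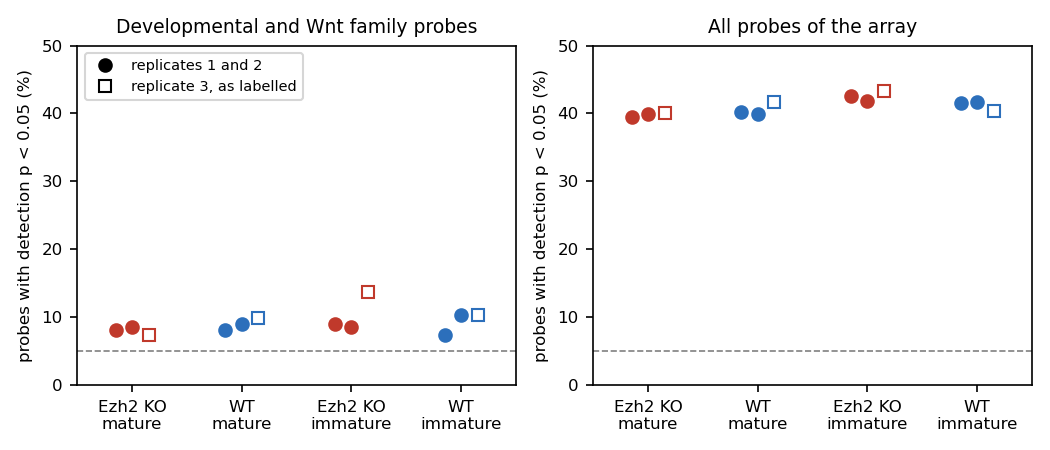
Share of probes with a detection p-value under 0.05 on each array, for the 233 family probes (left) and all 45281 probes (right), by labelled group (red Ezh2 KO, blue WT); circles are replicates 1 and 2, open squares replicate 3, and the dashed line is the 5% that negative controls reach. The family probes lie between 7.30% and 13.7% on every array, with the highest value on the array labelled Ezh2 KO immature 3.

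Of the 233 family probes, 182 (78.1%) were detected on none of the 12 arrays, against 45.8% of all probes, and 91 of the 132 genes had no detected probe at all. Detection on 3 or more arrays was reached by 31 probes of 26 genes. These were Hoxa4, Hoxa7, Hoxa13, Hoxb2, Hoxb4, Hoxc4, Hoxc10 and Hoxd11 among the Hox genes, Sox4, Sox5, Sox7, Sox8, Sox12 and Sox21 of the Sox family, Tbx6 and Tbx10, Nkx2-3 and Nkx2-4, Lhx3 and Lhx8, Six5 and Six6, Dlx3 and the antisense transcript Dlx1as, and Wnt5a and Wnt6. None of the 9 Pax genes was among them. Of 68 genes with several probes, 17 had a probe detected on 3 or more arrays and 4 had more than 1 such probe, so for most genes a single probe carries the signal.

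Members with known roles in blood cells were mostly not detected. Hoxa9 and Hoxa10, which maintain blood progenitors, were detected on 0 of 12 arrays by any of their 3 and 2 probes. The same held for the single probes of Hoxc6, Pax5 (the B cell commitment factor), Tbx21 (the T helper cell factor T-bet), Lhx2, Wnt10a and Dlx1. Wnt5a, a ligand of noncanonical Wnt signaling, was detected by 1 of its 3 probes, on 3 arrays, and Nkx2-3, a homeobox factor of spleen and gut vessels, by 1 of 2 probes, on 8 arrays.

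A small group was detected throughout, and none of it was called between the genotypes. Hoxb4, a factor that promotes expansion of blood stem cells, was at 8.01 and 7.39 in Ezh2 KO mature cells, against 7.74 and 7.42 in WT mature cells, and at 7.46 and 7.28 in Ezh2 KO immature cells, against 7.44 and 7.40 in WT immature cells (ILMN_1241077). The genotypes overlapped, and the difference over both stages was 0.04 (SE 0.18). Hoxa13, known from limb and hindgut patterning, was at 6.64 and 6.59 in Ezh2 KO mature cells, against 6.95 and 6.66 in WT mature cells, and at 6.26 and 6.24 in Ezh2 KO immature cells, against 6.49 and 6.39 in WT immature cells (ILMN_3087004). It was lower in Ezh2 KO cells at both stages by less than the fit could call, with a difference of -0.19 (SE 0.17), and its other 2 probes were never detected. Sox7, an endothelial and blood-forming SoxF factor, differed by 0.18 (SE 0.21, ILMN_1234505), and Hoxa7 by -0.14 (SE 0.22, ILMN_2621038), each with overlapping genotypes.

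Detection rarely switched with genotype. In mature cells Hoxb2, a hindbrain patterning gene, was the only family probe detected on both Ezh2 KO arrays (5.45 and 5.76) and neither WT array (5.20 and 5.08, ILMN_2598083), a pattern that 0.488% of all probes showed. In immature cells it was Sox12, a SoxC factor, at 5.61 and 5.21 in Ezh2 KO cells, against 4.79 and 5.07 in WT cells (ILMN_3099470), with 0.576% of all probes. The opposite pattern, WT alone, held for Sox4 in mature cells (ILMN_2727116, with 0.526% of all probes) and for Hoxc4 in immature cells (ILMN_2521794, with 0.373%). So each direction had 1 probe of 233 at each stage. No family probe switched at both stages in either direction, where 0.0353% of all probes were detected in Ezh2 KO cells alone and 0.011% in WT cells alone.

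No member of these families was called in a genotype comparison. Limma (Benjamini-Hochberg over all 45281 probes, called at an adjusted p under 0.05) called 0 of 233 higher and 0 lower in Ezh2 KO mature cells, where 0.0177% of all probes were called higher and 0.00221% lower. It called 0 and 0 in Ezh2 KO immature cells, against 0.0133% and 0.00221% of all probes, and 0 and 0 over both stages, against 0.0221% and 0.0155%. With so few calls over the whole array, these counts of 0 are near the background. At an unadjusted p under 0.05 there were 14 family probes in mature cells (6.01%, against 4.58% of all probes), 13 in immature cells (5.58%, against 3.2%) and 16 over both stages (6.87%, against 4.83%). The median difference of the 233 probes was 0.00 in mature cells, -0.01 in immature cells and -0.01 over both stages, as it was 0.00 for all probes in each. Differences above 0 were found for 118, 113 and 102 of the 233 probes in the same order.

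The family medians were near 0. Over both stages the family medians of the Ezh2 KO minus WT difference lay between -0.06 (Lhx, 16 probes) and 0.03 (the sine oculis genes, 9 probes). For the Hox clusters they were -0.02 in Hoxa (19 probes), 0.00 in Hoxb (15 probes), 0.01 in Hoxc (11 probes) and 0.00 in Hoxd (14 probes). Sox (46 probes) had a median of -0.02, Tbx (28 probes) -0.05 and Wnt (32 probes) 0.01. For comparison, Cdkn2a (ILMN_1226950) differed by 2.65 (SE 0.25, limma adjusted p = 0.00804) in mature cells and by 2.69 (SE 0.25, limma adjusted p = 0.00547) in immature cells. Its other probes were not called. Over both stages ILMN_1227342 differed by 1.27 (SE 0.19, limma adjusted p = 0.0577) and ILMN_1221177 by 0.29 (SE 0.17, limma adjusted p = 0.997). Leaving out single arrays ended the Cdkn2a call in 1 of 8 fits in mature cells and 4 of 8 in immature cells, with adjusted p up to 0.0509 and 0.194. Over both stages its call held in 8 of 8. Replicate 3 was set apart in part because of ILMN_1226950, so the p-values of this probe are not an independent check. With all 12 arrays as labelled it differed by 0.74 in mature cells and 0.67 in immature cells, and was not called.

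**Figure D2:**
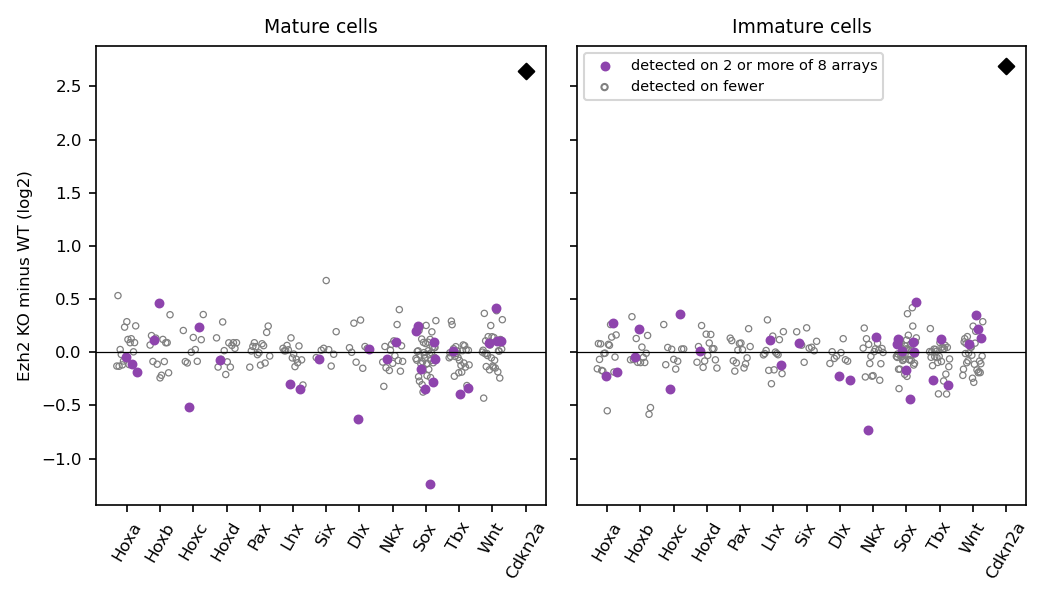
Ezh2 KO minus WT difference (log2) of each family probe in mature cells (left) and immature cells (right), replicates 1 and 2; filled points are probes detected on 2 or more of the 8 arrays, open points on fewer, and the diamond is Cdkn2a (ILMN_1226950). The family probes lie between -1.24 and 0.67 in mature cells and between -0.73 and 0.48 in immature cells, while Cdkn2a stands at 2.65 and 2.69.

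The precision differed with signal. For the 21 family probes (18 genes) detected on both arrays of at least 1 group, the standard error was 0.24 to 0.39 at a single stage and 0.17 to 0.27 over both. Among them the largest rises over both stages were in Hoxb2 (0.34, SE 0.18), Hoxc10 (0.30, SE 0.20), Sox12 (0.21, SE 0.20, ILMN_3099470), Sox7 (0.18) and Sox12 (0.14, ILMN_1227128). The largest falls were in Sox4 (-0.84, SE 0.21), Hoxc4 (-0.43, SE 0.20), Nkx2-4 (-0.40, SE 0.18), Sox5 (-0.26) and Lhx3 (-0.23). None of these 10 passed the test. In mature cells alone Hoxb2 (0.47) and Sox7 (0.24) led the rises and Sox4 (-1.24) and Hoxc4 (-0.51) the falls, followed by Tbx10 (-0.39), Lhx3 (-0.34) and Sox5 (-0.34). In immature cells Sox12 (0.48, ILMN_3099470), Hoxc10 (0.36) and Hoxa4 (0.27) were highest, and Nkx2-4 (-0.73), Sox4 (-0.44), Hoxc4 (-0.35), Tbx6 (-0.26) and Hoxa7 (-0.22) lowest.

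Sox4, a SoxC factor of lymphoid and progenitor cells, had the smallest p of the families in mature cells and over both stages. In mature cells it was at 4.76 and 4.62 in Ezh2 KO cells and at 5.47 and 6.39 in WT cells (ILMN_2727116). Neither Ezh2 KO array detected it and both WT arrays did, so it was at least 1.60-fold lower in Ezh2 KO cells, without passing the test (limma adjusted p = 0.687). In immature cells it was at 7.70 and 7.82 in Ezh2 KO cells and at 8.06 and 8.33 in WT cells. The genotypes did not overlap at either stage, and over both the limma adjusted p was 0.635. The value in mature cells rests partly on WT array 2: without it the difference was -0.78. The next smallest p-values belonged to probes detected on no array, such as Hoxa3 and Wnt3 in mature cells, Hoxa9 and Tbx21 in immature cells and Pax1 and Wnt9b over both stages.

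LPS moved a few members by large amounts in both genotypes, and most members were not called. In Ezh2 KO cells 5 family probes (4 genes) were called higher after LPS and 3 (3 genes) lower, where 5.87% and 6.96% of all probes were called. In WT cells 5 probes (3 genes) were called higher and 5 (5 genes) lower, against 4.92% and 5.74% of all probes. Of the 233 family probes, a smaller share was called than of all probes in each direction and genotype. Family probes were also detected less often: 78.1% were detected on no array, against 45.8% of all probes. When only probes detected on 2 or more of the 8 arrays were tested, 7 of the 30 such family probes were called in each genotype. The share of all such probes is not given here. The genes that rose in both genotypes were Tbx10, Sox5 and Wnt6, and those that fell in both were Sox4, Sox12 and Nkx2-4. With all 12 arrays as labelled, none of these calls was made. In the authors' deposited log2 values, which lack background correction, the differences were smaller, such as 1.12 in Ezh2 KO cells and 1.43 in WT cells for Tbx10 (ILMN_2622107), with the calls of these 6 genes kept.

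The promoters of these 6 genes are shown because they are the members whose level followed LPS. Each run covers 250 bases before to 50 bases after the start given in RefSeq (GRCm38.p6), 5′ to 3′ on the gene's strand, with CpG pairs in capitals. Tbx10 is at chr19:3992502-3992801 (plus strand), Sox5 at chr6:143947057-143947356 (minus strand), Wnt6 at chr1:74771642-74771941 (plus strand), Sox4 at chr13:28953650-28953949 (minus strand), Sox12 at chr2:152397997-152398296 (minus strand) and Nkx2-4 at chr2:147085296-147085595 (minus strand).
Tbx10: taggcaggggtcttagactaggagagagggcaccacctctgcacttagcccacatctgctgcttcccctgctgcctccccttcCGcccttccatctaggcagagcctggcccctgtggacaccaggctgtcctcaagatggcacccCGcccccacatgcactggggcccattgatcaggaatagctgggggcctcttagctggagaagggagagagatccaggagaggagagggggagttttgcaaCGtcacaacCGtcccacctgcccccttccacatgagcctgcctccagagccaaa
Sox5: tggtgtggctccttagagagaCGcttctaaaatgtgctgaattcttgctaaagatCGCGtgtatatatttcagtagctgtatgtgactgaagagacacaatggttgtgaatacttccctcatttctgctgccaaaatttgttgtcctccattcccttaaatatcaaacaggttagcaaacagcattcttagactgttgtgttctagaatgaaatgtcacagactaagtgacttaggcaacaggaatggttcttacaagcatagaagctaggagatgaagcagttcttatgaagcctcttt
Wnt6: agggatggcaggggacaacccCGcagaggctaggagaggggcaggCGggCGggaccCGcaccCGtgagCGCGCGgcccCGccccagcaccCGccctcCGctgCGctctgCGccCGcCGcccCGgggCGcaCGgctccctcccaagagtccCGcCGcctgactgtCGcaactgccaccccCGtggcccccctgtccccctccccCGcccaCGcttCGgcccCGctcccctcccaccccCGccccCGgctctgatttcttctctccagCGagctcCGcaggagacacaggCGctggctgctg
Sox4: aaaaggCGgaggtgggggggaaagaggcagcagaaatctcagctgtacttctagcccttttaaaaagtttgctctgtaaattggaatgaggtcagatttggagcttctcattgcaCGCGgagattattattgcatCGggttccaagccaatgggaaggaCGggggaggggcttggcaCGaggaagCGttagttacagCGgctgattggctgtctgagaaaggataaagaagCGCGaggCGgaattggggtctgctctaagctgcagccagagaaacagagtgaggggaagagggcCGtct
Sox12: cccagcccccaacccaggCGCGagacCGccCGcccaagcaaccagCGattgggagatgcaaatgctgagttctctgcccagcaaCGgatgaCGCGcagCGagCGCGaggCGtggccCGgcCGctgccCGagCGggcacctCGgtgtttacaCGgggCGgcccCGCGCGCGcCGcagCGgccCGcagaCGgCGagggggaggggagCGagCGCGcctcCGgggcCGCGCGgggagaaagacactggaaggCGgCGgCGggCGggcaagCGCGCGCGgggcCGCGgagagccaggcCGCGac
Nkx2-4: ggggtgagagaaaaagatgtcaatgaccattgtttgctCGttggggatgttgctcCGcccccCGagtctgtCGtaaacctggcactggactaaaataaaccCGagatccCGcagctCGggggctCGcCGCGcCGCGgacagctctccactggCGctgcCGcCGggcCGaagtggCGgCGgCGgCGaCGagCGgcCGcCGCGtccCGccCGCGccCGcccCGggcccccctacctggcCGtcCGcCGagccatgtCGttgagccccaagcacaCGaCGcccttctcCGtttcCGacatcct

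The 6 windows differed in CpG content. Sox12, Nkx2-4 and Wnt6 held 47, 38 and 31 CpG pairs, and Sox4 held 12. Tbx10 held 4 and Sox5 held 3, below the median of 7 over the 32851 promoters in the table. CpG-rich and CpG-poor promoters thus occurred among the genes that rose, while the 3 that fell were all above the median. On both strands the windows were searched for the NF-kappaB motif, the AP-1 motif (TGANTCA) and the TATA box (TATAAA). None of these letters was found in any of the 6, while 8.46%, 7.81% and 13.6% of all promoters held them.

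Tbx10, a T-box factor related to Tbx1, showed the largest rise. It was at 7.99 and 6.85 in mature Ezh2 KO cells, against 5.02 and 5.19 in immature Ezh2 KO cells, and at 8.24 and 7.39 in mature WT cells, against 4.83 and 5.13 in immature WT cells (ILMN_2622107). Every mature array lay above every immature one, and only 1 immature array, of Ezh2 KO cells, detected it. The rise was 2.32 in Ezh2 KO cells (4.98-fold, SE 0.38, limma adjusted p = 0.00169) and 2.84 in WT cells (at least 6.30-fold, SE 0.38, limma adjusted p = 0.000581). On the replicate 3 arrays labelled Ezh2 KO, not used in the test, Tbx10 was at 7.45 in the mature and 4.93 in the immature sample. The pair labelled WT ran the other way, and with all 12 arrays as labelled the WT difference was 0.87. The other Tbx10 probe was never detected.

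Sox5, a SoxD factor of cartilage and nerve development that is also expressed in some B cells, was at 6.48 and 6.58 in mature Ezh2 KO cells, against 4.91 and 4.82 in immature Ezh2 KO cells (ILMN_2631143). In WT cells it was at 6.48 and 7.25 after LPS, against 4.91 and 5.16 without it. Mature and immature arrays did not overlap, and 1 immature WT array detected the probe. The rise was 1.66 in Ezh2 KO cells (at least 2.63-fold, SE 0.30, limma adjusted p = 0.00292) and 1.83 in WT cells (3.56-fold, SE 0.30, limma adjusted p = 0.00189). A second Sox5 probe was called in WT cells (0.59, ILMN_2448591) without being above background in either group, so no fold is given. Another, ILMN_1213910, was detected on no array and was not called (0.04 in Ezh2 KO and 0.06 in WT cells).

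Wnt6, a ligand of the Wnt pathway, was the one Wnt gene called, and rose by 2 of its 3 probes. ILMN_2901765 was at 8.01 and 8.66 in mature Ezh2 KO cells, against 7.24 and 6.63 in immature Ezh2 KO cells, and at 8.09 and 8.38 in mature WT cells, against 6.95 and 6.66 in immature WT cells. The stages did not overlap, and all 12 arrays detected it. The rise was 1.40 in Ezh2 KO cells (2.64-fold, SE 0.29, limma adjusted p = 0.00707) and 1.43 in WT cells (2.69-fold, SE 0.29, limma adjusted p = 0.00762). ILMN_2423835 gave 1.15 in Ezh2 KO cells (limma adjusted p = 0.0291) and 1.14 in WT cells (limma adjusted p = 0.0352). The remaining Wnt6 probe, ILMN_2491759, was called in neither genotype and gave 0.15 in WT cells (limma adjusted p = 0.872). Leaving out single arrays ended the call of ILMN_2901765 in 2 of 8 fits in each genotype, with adjusted p up to 0.0947 in Ezh2 KO cells and 0.0855 in WT cells. It ended that of ILMN_2423835 in 2 of 8 fits in Ezh2 KO cells and 4 of 8 in WT cells, with adjusted p up to 0.253 and 0.213.

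**Figure D3:**
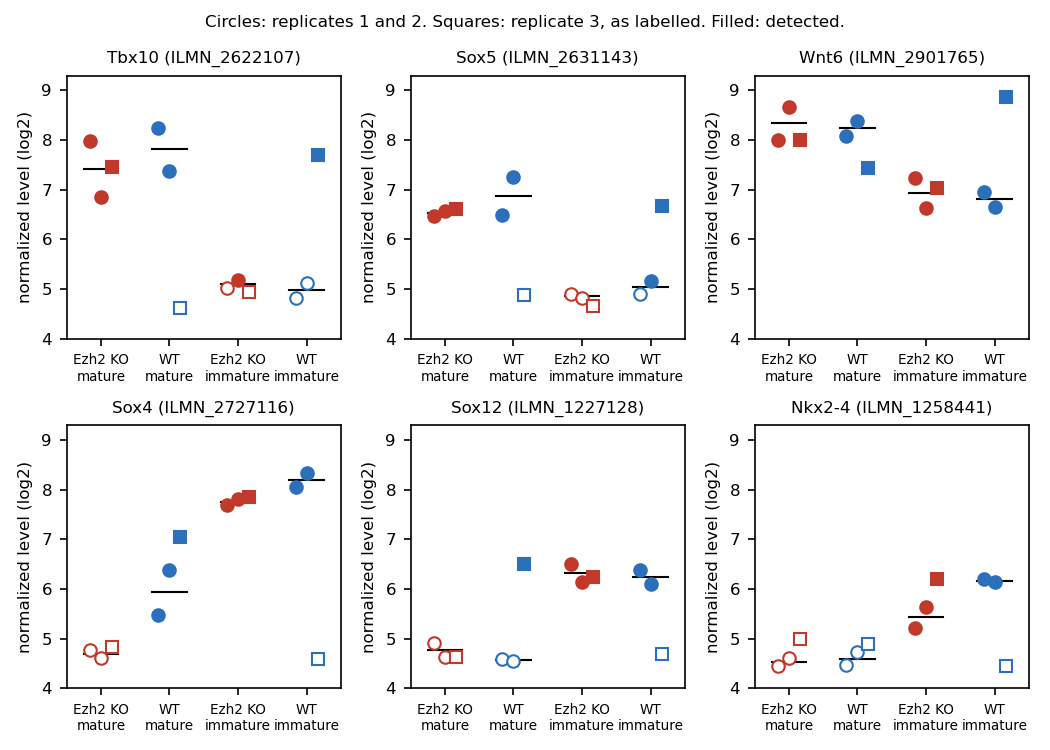
Normalized level (log2) on each array of the 6 family genes called after LPS in both genotypes, by labelled group (red Ezh2 KO, blue WT); circles are replicates 1 and 2 with their mean as a line, squares replicate 3 as labelled, and filled symbols are detected. Tbx10, Sox5 and Wnt6 are higher and Sox4, Sox12 and Nkx2-4 lower on the mature arrays of replicates 1 and 2, while the arrays labelled WT of replicate 3 run the other way.

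Sox4 fell the most. It was at 4.76 and 4.62 in mature Ezh2 KO cells, against 7.70 and 7.82 in immature Ezh2 KO cells, and at 5.47 and 6.39 in mature WT cells, against 8.06 and 8.33 in immature WT cells (ILMN_2727116). The fall was -3.07 in Ezh2 KO cells (at least 5.66-fold lower, SE 0.30, limma adjusted p = 5.57e-05) and -2.26 in WT cells (4.80-fold lower, SE 0.30, limma adjusted p = 0.00055). The difference between these falls was -0.80 (SE 0.43) and was not called (limma adjusted p = 0.9998). On the replicate 3 arrays labelled Ezh2 KO, Sox4 was at 4.84 in the mature and 7.85 in the immature sample. The pair labelled WT ran the other way, and with all 12 arrays as labelled the WT difference was -0.69. A second Sox4 probe, ILMN_2893417, was detected on 4 arrays, all labelled immature, and was not called.

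Sox12, the close relative of Sox4 in the SoxC group, was at 4.91 and 4.62 in mature Ezh2 KO cells, against 6.51 and 6.14 in immature Ezh2 KO cells (ILMN_1227128). In WT cells it was at 4.59 and 4.55 after LPS, against 6.39 and 6.11 without it. No mature array of replicates 1 and 2 detected it, and it was at least 2.10-fold lower in Ezh2 KO cells (-1.56, SE 0.27, limma adjusted p = 0.00244) and at least 2.01-fold lower in WT cells (-1.68, SE 0.27, limma adjusted p = 0.00188). Another Sox12 probe, ILMN_3099470, was detected on 8 arrays and was not called, so the probes of this gene disagree.

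Nkx2-4, a homeobox factor of the hypothalamus, was at 4.44 and 4.62 in mature Ezh2 KO cells, against 5.22 and 5.64 in immature Ezh2 KO cells (ILMN_1258441). In WT cells it was at 4.46 and 4.73 after LPS, against 6.19 and 6.13 without it. It was at least 1.13-fold lower in Ezh2 KO cells (-0.90, SE 0.25, limma adjusted p = 0.0343) and at least 1.90-fold lower in WT cells (-1.57, SE 0.25, limma adjusted p = 0.00165). The call in Ezh2 KO cells was lost in 4 of 8 fits that left out an array, with adjusted p up to 0.243. The remaining calls were close to background. Nkx2-5, the heart homeobox factor, was called higher in Ezh2 KO cells (0.66, limma adjusted p = 0.0361) with 1 detected array. In WT cells Hoxb3 (-0.71, ILMN_3150064) was called lower with 1 detected array and Tbx21 (-0.42) with none. Leaving out an array ended these calls in 3, 2 and 6 of 8 fits.

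The LPS response of the families was not called different between the genotypes. Limma called 0 of 233 probes for the difference of responses, and 0% of all probes in either direction. At an unadjusted p under 0.05 there were 12 family probes (5.15%, against 2.62% of all probes). The smallest p-values belonged to Hoxa9, Hoxb3 and Wnt3, of which Hoxb3 was detected on 1 array and the others on none. For the 6 genes called in both genotypes the difference of responses ran from -0.80 in Sox4 to 0.67 in Nkx2-4, with standard errors of 0.35 to 0.54.

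**Figure D4:**
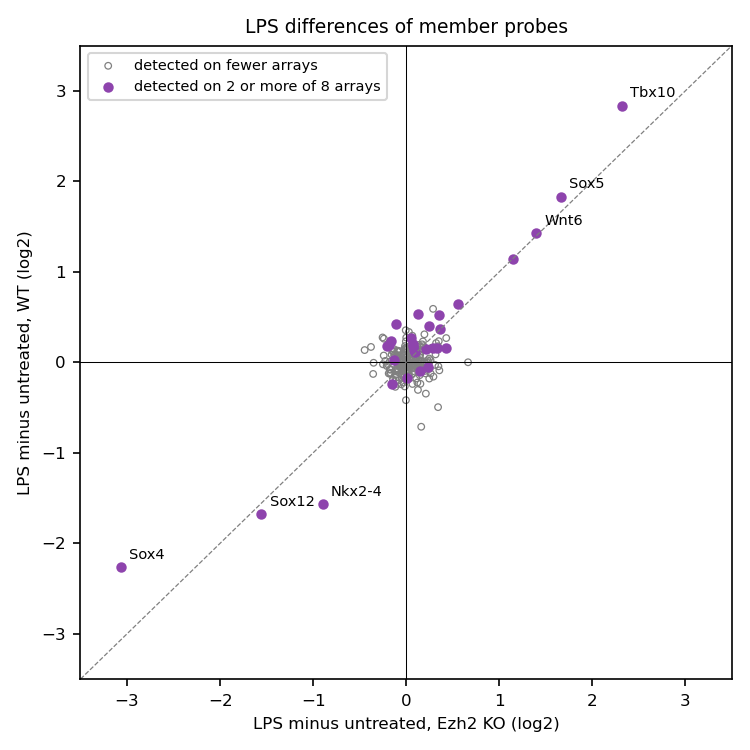
LPS minus untreated difference (log2) of the 233 family probes in Ezh2 KO cells (horizontal) and WT cells (vertical), replicates 1 and 2; filled points are probes detected on 2 or more of the 8 arrays, and the dashed line marks equal differences. The named probes lie near that line, from -3.07 and -2.26 for Sox4 to 2.32 and 2.84 for Tbx10.

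The summed levels of markers of other cells also differed between LPS-treated and untreated arrays. The summed level (linear scale) of 15 mast cell, basophil and eosinophil probes was 12895 to 18647 in mature Ezh2 KO cells, against 3199 to 5069 in immature Ezh2 KO cells, and 16538 to 17053 in mature WT cells, against 3551 to 5389 in immature WT cells. Only Hdc, the histidine decarboxylase, was called higher in this list (5.09 in Ezh2 KO and 4.27 in WT cells, ILMN_2965903), Cpa3 was called lower in both genotypes and Kit in WT cells, and the list medians were -0.06 and -0.39. The summed level of 15 T and NK cell probes was 379 to 426 in mature Ezh2 KO cells, against 2499 to 3499 in immature Ezh2 KO cells, and 393 to 406 in mature WT cells, against 754 to 890 in immature WT cells, and Cd4 and Cd8a were detected in no group. Only Cd3d and Cd3g were called after LPS in this list, both lower in each genotype, and the list medians were 0.02 and -0.04. Cd3g alone was at 10.97 and 11.49 (log2) in immature Ezh2 KO cells. The summed level of 9 B cell probes was 1527 to 1674 in mature Ezh2 KO cells, against 507 to 566 in immature Ezh2 KO cells, and 985 to 1290 in mature WT cells, against 450 to 590 in immature WT cells. Of this list Blnk was called higher in both genotypes and Cd79b in Ezh2 KO cells only, with list medians of 0.14 and 0.13. The summed level of 9 macrophage probes was 11534 to 14421 in mature Ezh2 KO cells, against 22776 to 23622 in immature Ezh2 KO cells, and 13240 to 19384 in mature WT cells, against 21667 to 23153 in immature WT cells. Of the macrophage probes, 3 were called lower in Ezh2 KO cells, 2 were called lower in WT cells, and Adgre1 was called higher in WT cells (0.83, limma adjusted p = 0.0342). The summed level of 13 neutrophil probes was 2337 to 5427 in mature Ezh2 KO cells, against 4333 to 21557 in immature Ezh2 KO cells, and 4424 to 9739 in mature WT cells, against 10305 to 27314 in immature WT cells. Its stages overlapped in Ezh2 KO cells, the list medians were -1.42 and -1.33, and limma called 0 of its probes in either genotype. Between the stages of each genotype, the summed levels of T and NK cell and macrophage probes were thus lower where Sox4 was lower. Between the genotypes this did not hold for T and NK cell probes. In immature cells Sox4 was lower in Ezh2 KO than in WT cells (a difference of -0.44, not called). The sum of T and NK cell probes was higher there, at 2499 to 3499 against 754 to 890. After LPS the summed level of B cell probes was higher, as were Tbx10, Sox5 and Wnt6, although few genes of either lymphocyte list were called. The mast cell, basophil and eosinophil sum was higher as well. In mature cells the B cell sum was 1527 to 1674 in Ezh2 KO and 985 to 1290 in WT cells. There Tbx10 and Sox5 differed by -0.39 and -0.34 (Ezh2 KO minus WT, neither called), and Wnt6 (ILMN_2901765) overlapped between the genotypes. The part of these sums in the LPS results was not tested.

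Parts of the rest of the Wnt pathway were broadly expressed, and some of its genes were called after LPS. Detection on 2 or more of the 8 arrays was reached by 7 of 10 secretion probes and 40 of 65 transducer probes. It was reached by 8 of 18 target, 13 of 41 receptor and 4 of 24 antagonist and agonist probes. Of the 32 Wnt ligand probes, 4 were detected on 3 or more of 12 arrays. Of all probes on the array, 5.87% were called higher and 6.96% lower in Ezh2 KO cells, and 4.92% and 5.74% in WT cells. Among 3 Wnt secretion genes (10 probes), 5 probes were called lower in Ezh2 KO cells, all of Wls, the carrier that brings Wnt proteins to the cell surface. In WT cells 5 were called lower, 4 of them of Wls, and 1 higher. Wls (ILMN_2704184) was at 6.82 and 6.85 in mature Ezh2 KO cells, against 8.99 and 8.61 in immature Ezh2 KO cells, and at 6.67 and 6.95 in mature WT cells, against 8.50 and 8.08 in immature WT cells. The stages did not overlap, with falls of -1.97 (SE 0.24, limma adjusted p = 0.000243) in Ezh2 KO cells and -1.48 (SE 0.24, limma adjusted p = 0.00207) in WT cells. Notum, an enzyme that inactivates Wnt proteins, was called higher in WT cells (1.37, limma adjusted p = 0.0445), a call lost in 5 of 8 fits without 1 array. Porcn, which acylates Wnt proteins, was called lower in WT cells (-0.53) but was detected on 0 arrays.

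Of 21 receptors and coreceptors (41 probes), 1 gene was called higher in each genotype, and 1 lower in Ezh2 KO cells. Fzd7, a Frizzled receptor, was at 9.96 and 9.41 in mature Ezh2 KO cells, against 8.33 and 7.61 in immature Ezh2 KO cells, and rose by 1.71 (SE 0.39, limma adjusted p = 0.0119). In WT cells it was at 10.28 and 9.63 after LPS, against 8.74 and 7.55 without it, a rise of 1.81 (SE 0.39, limma adjusted p = 0.0105). Each genotype lost the Fzd7 call in 2 of 8 fits without 1 array, with adjusted p up to 0.137 and 0.125. Lrp5, a coreceptor, was called lower in Ezh2 KO cells (-0.56) with 1 detected array. Of 17 antagonists and agonists outside the cell (24 probes), Kremen1 was called higher and Kremen2 lower, both receptors of the Dkk inhibitors. Kremen1 rose by 1.74 in Ezh2 KO cells (SE 0.22) and 1.66 in WT cells (SE 0.22), and Kremen2 differed by -1.49 (SE 0.35) and -1.57 (SE 0.35). The Kremen2 calls were lost in 2 of 8 fits in each genotype. The shares of receptor and of antagonist and agonist probes called were at or below those of all probes.

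Of 25 signal transducers, 24 had probes (65 in all), of which 9 were called higher and 2 lower in Ezh2 KO cells and 9 higher and 3 lower in WT cells. Ctnnbip1, an inhibitor of beta-catenin, was at 7.30 and 6.98 in mature Ezh2 KO cells, against 9.23 and 9.45 in immature Ezh2 KO cells, and at 7.45 and 7.22 in mature WT cells, against 9.13 and 9.27 in immature WT cells. It differed by -2.20 in Ezh2 KO cells (SE 0.22, limma adjusted p = 5.86e-05) and by -1.86 in WT cells (SE 0.22, limma adjusted p = 0.000241). Tcf7l2, a DNA-binding partner of beta-catenin, differed by -1.23 (SE 0.26) and -1.46 (SE 0.26), while the coactivator Bcl9l rose by 1.51 (SE 0.24) and 0.89 (SE 0.24). The Tcf7l2 call in Ezh2 KO cells was lost in 2 of 8 fits. Of 10 target genes (18 probes), Ccnd1, a cyclin that drives entry into S phase, differed by -4.07 in Ezh2 KO cells (SE 0.56) and -3.74 in WT cells (SE 0.56), and its 3 probes were called in both. Median LPS differences of these lists were -0.83 and -0.72 for secretion, 0.02 and 0.02 for receptors, -0.02 and 0.03 for antagonists and agonists, 0.03 and -0.02 for transducers and 0.00 and -0.04 for targets, in Ezh2 KO and WT cells, against 0.01 and 0.00 for all probes.

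**Figure D5:**
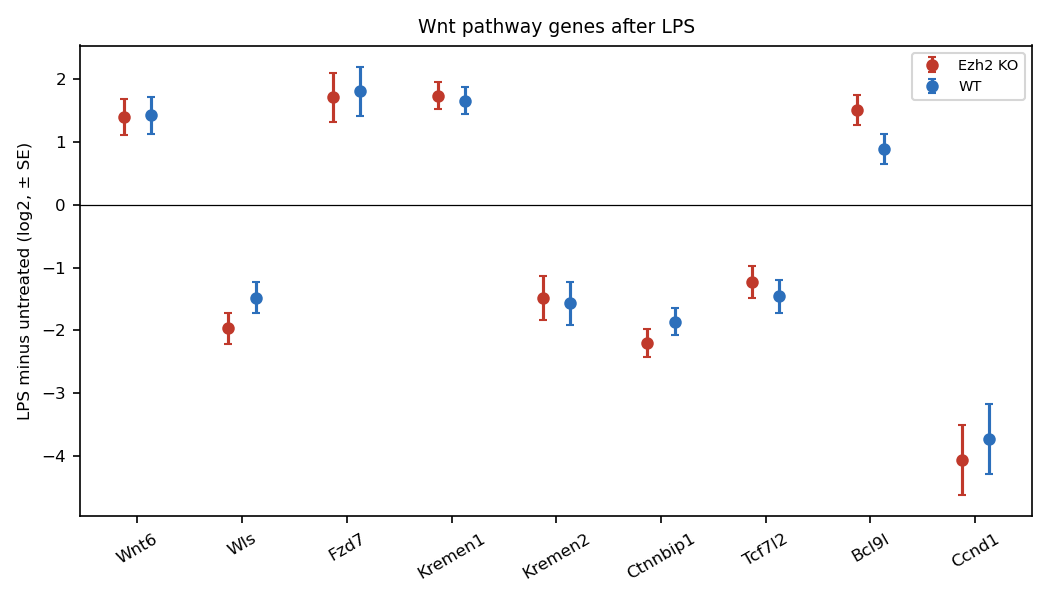
LPS minus untreated difference (log2) of 9 Wnt pathway genes in Ezh2 KO cells (red) and WT cells (blue), replicates 1 and 2, with bars of 1 SE of the limma fit. Wnt6, Fzd7, Kremen1 and Bcl9l are above 0 in both genotypes and Wls, Kremen2, Ctnnbip1, Tcf7l2 and Ccnd1 below 0.

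One Wnt pathway gene outside the families was called between the genotypes. Ryk, a coreceptor that binds Wnt proteins, was at 7.17 and 7.08 in Ezh2 KO mature cells, against 5.87 and 5.39 in WT mature cells, and at 7.45 and 7.70 in Ezh2 KO immature cells, against 5.68 and 6.24 in WT immature cells (ILMN_2667020). The genotypes did not overlap, and the difference over both stages was 1.55 (SE 0.20, limma adjusted p = 0.0268). A second probe, ILMN_3159826, ran the same way without being called (0.96, SE 0.19, limma adjusted p = 0.216). On replicate 3, Ryk (ILMN_2667020) was at 5.97 and 6.22 on the arrays labelled Ezh2 KO and at 7.76 and 7.10 on those labelled WT. The call was lost in 7 of 8 fits without 1 array, with adjusted p up to 0.18, and when only probes detected on at least 2 of the 8 arrays were tested (adjusted p = 0.0663).

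Polycomb, Trithorax and cofactor genes were called between the genotypes in no case, and some were called after LPS, where 5.87% of all probes were called higher and 6.96% lower in Ezh2 KO cells and 4.92% and 5.74% in WT cells. Of 39 probes of the PRC2 genes and H3K27 demethylases, 5 were called higher and 4 lower in Ezh2 KO cells and 3 and 3 in WT cells. Kdm6b, an H3K27 demethylase, rose by 1.59 in Ezh2 KO cells and 0.94 in WT cells (ILMN_3023230). Of 34 PRC1 probes, 5 were called higher and 2 lower in each genotype, with Pcgf5 up by 2.03 and 1.75 and Pcgf6 at -1.68 and -1.09. Of 34 probes of Trithorax and MLL cofactors, 6 were called higher and 2 lower in Ezh2 KO cells and 5 and 2 in WT cells, with Dot1l, the H3K79 methyltransferase, up by 1.80 and 1.71. Of 31 probes of TALE cofactors, which bind DNA with Hox proteins, 3 were called higher in each genotype, all of Tgif1 (1.16 and 1.05, ILMN_1253854).

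Other developmental Polycomb targets were also rarely called. Of 47 listed symbols 42 had probes, 63 in all, and 10 of these were detected on 2 or more of the 8 arrays. Cdkn2a was the one gene called higher in Ezh2 KO cells, by ILMN_1226950 alone, and none was called lower. The list was chosen with earlier results of these data known, and replicate 3 was set apart partly on Cdkn2a. The Cdkn2a call is therefore not a result about the list as a whole. After LPS the neighbouring cell cycle inhibitor Cdkn2b was the one gene called, higher by 2.04 in Ezh2 KO cells (SE 0.18) and 1.68 in WT cells (SE 0.18). Among markers of other cells, the T cell receptor subunit Cd3g was higher in Ezh2 KO immature cells (a log2 difference of 3.003, limma adjusted p = 0.00545), with no family gene called beside it.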

How the data were processed

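Per the file headers, an average signal intensity is given for each of 45281 probes on 12 arrays, not normalized. The deposited p-value of detection has steps that fit 936 negative controls. A further deposited table holds log2 values by the authors and equals quantile normalization of the intensities without background correction (largest difference 5.0e-09). The tools BeadStudio, limma and R (2.15.2) come from the submitters' processing notes, which assign no steps here. Median intensities were 108 to 119 and 17892 to 19611 probes were detected per array. The number of arrays limits the precision.

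Here the intensities were background-corrected, quantile-normalized and brought to log2 with neqc (offset 16, with controls inferred from detection) in limma 3.58.1 (R 4.3.3). Tables were made with pandas 2.3.3 (Python 3.11.15). Probes took the symbol of the platform annotation: 34885 had 1 symbol, 18 several and 10378 none. For 34807 the gene identifier was found in RefSeq, and the symbol given there was used. Probes of a gene were kept apart. The 4 group means of replicates 1 and 2 were fitted in limma (lmFit, contrasts.fit, then eBayes with trend). Tests are two-sided, with Benjamini-Hochberg adjustment across all probes. The fit was tested on simulated data.

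Where no array of a group detected a probe, the fold is a bound against the higher of each array's lowest detected level and the probe's own level. Called family probes were named. Where there were none, the 3 with the smallest p were named, with the 5 largest rises and 5 largest falls among probes detected in a group, a fixed set of blood-related and Wnt members, and up to 2 risen and 2 fallen genes of each list. The members and lists were chosen with earlier results of these data known. RefSeq promoters (GRCm38.p6) were found for 92 of 132 genes, too few for a comparison of CpG content over the families. The alternatives were all 12 arrays as labelled, a detection filter, no background correction, the authors' deposited log2 values, a replicate block and leaving out each array. The fit of 10 arrays, without the pair labelled WT of replicate 3, was chosen after seeing the data.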

Additional observations from a re-analysis of the deposited data

Results flagged for a closer look

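The array labelled Ezh2 KO immature 3, which the tests did not use, had 32 family probes detected, above the 17 to 24 of every array labelled WT. That array also had Cdkn2a at 4.70 (ILMN_1226950), in the range of the WT arrays of replicates 1 and 2, and the most detected probes overall (19611). The part of these in the count was not tested.

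For 3 family probes the LPS difference ran in opposite directions in the genotypes, on every numbered pair of replicates 1 and 2: the Ezh2 KO minus WT difference of the responses was 0.84 for Hoxa9 (ILMN_2645155), 0.56 for Wnt3 (ILMN_2508080) and 0.45 for Hoxa3 (ILMN_1234863). All 3 were detected on none of the 12 arrays, and limma called none of these differences (adjusted p = 0.9998 each).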

How the results depend on the processing

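The counts of 0 family probes in the genotype comparisons and in the difference of LPS responses stayed at 0 in each alternative run. The runs of 12 and of 10 arrays cannot test the genotype counts. Both place the replicate 3 arrays with Cdkn2a at 4.57 and 4.70 in the Ezh2 KO group, and Cdkn2a itself was not called in either. With all 12 arrays as labelled, 0 family probes were called after LPS in Ezh2 KO cells and 0 in WT cells, and all 18 single calls were lost. They were kept with the 10 arrays and with the replicate block (18 of 18 each). The deposited values and quantile normalization without background correction lost 1, Tbx21 in WT cells (adjusted p = 0.084). They also gave smaller differences, such as -1.51 for Sox4 in Ezh2 KO cells and -1.33 in WT cells. Leaving out 1 array gave 5 to 10 probes called after LPS in Ezh2 KO cells and 6 to 12 in WT cells, lowest without Ezh2 KO mature array 2 (5) and WT immature array 2 (6). With a detection p under 0.01, 6 probes were detected on both arrays in Ezh2 KO mature cells, 7 in WT mature cells, 7 in Ezh2 KO immature cells and 8 in WT immature cells. Replicate 3 alone had 23 in WT mature, 32 in Ezh2 KO immature and 24 in WT immature. Single arrays had 19 to 20 in Ezh2 KO mature, 19 to 21 in WT mature, 20 to 21 in Ezh2 KO immature and 17 to 24 in WT immature cells. Ryk differed by 1.14 with 10 arrays (adjusted p = 0.947) and 0.59 with 12 (adjusted p = 0.9999), and Cdkn2a over both stages by 1.70 and 0.71. Same-numbered arrays deviated together between groups (r = 0.20 to 0.68 over 21231 detected probes), but with 2 numbers this does not establish pairing, and the block gave 9 calls after LPS in Ezh2 KO cells and 12 in WT cells, against 8 and 10 without it. Signal near background limits these families: 182 of 233 probes gave none.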
